A study of Mus musculus with 6 samples.

Results

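Expression of 7 protease inhibitor genes was followed in mouse colon, the 4 tissue inhibitors of metalloproteinases (Timp1, Timp2, Timp3 and Timp4) and 3 serpins (Serpina3n, Serpine2 and Serping1). They were taken by gene symbol from the deposited table and are 7 of its 18477 genes. The set was chosen from measured values of the comparison described here, as inhibitors that respond to injury set against inhibitors made at a steady level, so the differences of these 7 genes are given as a description and without a test. All libraries came from colon tissue of male C57BL/6 mice, 6 to 8 weeks old, that drank 2% dextran sulfate sodium (DSS), a chemical that damages the colonic epithelium, from day 8 to day 14. Over 14 days the mice were gavaged daily with PBS (DSS group, n = 3) or with *Bacteroides vulgatus* in PBS (DSS+BV group, n = 3), and the sequenced mice were drawn at random from larger groups. Each library holds the RNA of 1 mouse. Every group had received DSS and no untreated colon was analysed here, so whether a gene was induced by injury could not be measured.

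TIMPs are small secreted proteins that block the active site of matrix metalloproteinases (MMPs) and of some ADAM and ADAMTS proteinases, the enzymes that cut collagen, other matrix proteins and cell surface proteins. Serpins act once: the target proteinase cuts a loop of the serpin and is then trapped in a complex that cells take up. In the colon these inhibitors are made by fibroblasts, smooth muscle, endothelium and leukocytes, and several of them are made in larger amounts in wounds and inflamed tissue.

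Library totals lay between 15293276 and 17254343 expected counts, and 14579 genes passed the filter on low counts. Expression is given in CPM, counts scaled to a common library total after TMM normalisation between libraries, and a log2 fold change compares DSS+BV with DSS. The median log2 fold change of all tested genes was -0.01, and 7501 of them were below 0. Replicates were not tight: the biological coefficient of variation was 32.1%. Across genes, which are not independent, DSS 1 and DSS+BV 1 correlated best with each other (r = 0.967) and DSS 2 with DSS+BV 2 (r = 0.963), so these 3 libraries, DSS 1, DSS 2 and DSS+BV 1, were closest to a library of the other group. Values are also given without DSS 2 and DSS+BV 1, the pair that an earlier clustering of these libraries had placed with most of the other group. Leaving out libraries chosen in that way can widen a difference by itself, so these values do not measure stability. In bulk tissue, fewer cells of a type and less RNA per cell cannot be told apart.

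Of the 7 inhibitors, Timp1 was 5.13 times and Serpina3n 5.28 times as high in the DSS group as in the DSS+BV group, Serpine2 3.76 times and Serping1 2.08 times as high, and no DSS+BV library reached any DSS library for these 4. Timp2, Timp3 and Timp4 had overlapping groups. All 7 passed the filter on low counts. At an adjusted p under 0.05 with a log2 fold change below -1 in edgeR's quasi-likelihood fit, 2 of the 7 were lower in the DSS+BV group, against 0.0892% of all tested genes, and none was higher, against 0%. DESeq2 called 3 of the 7 lower, the third being Serpine2, against 1.78% of genes, and none higher, against 0.291%. Groups did not overlap, with every DSS+BV library lower, for 4 of the 7, against 11.3% of tested genes, and with every DSS+BV library higher for none, against 6.37%. With any 1 library left out, edgeR called 0 of the 7. Since the 7 genes were selected on these values, nothing is read from those counts.

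**Figure D1:**
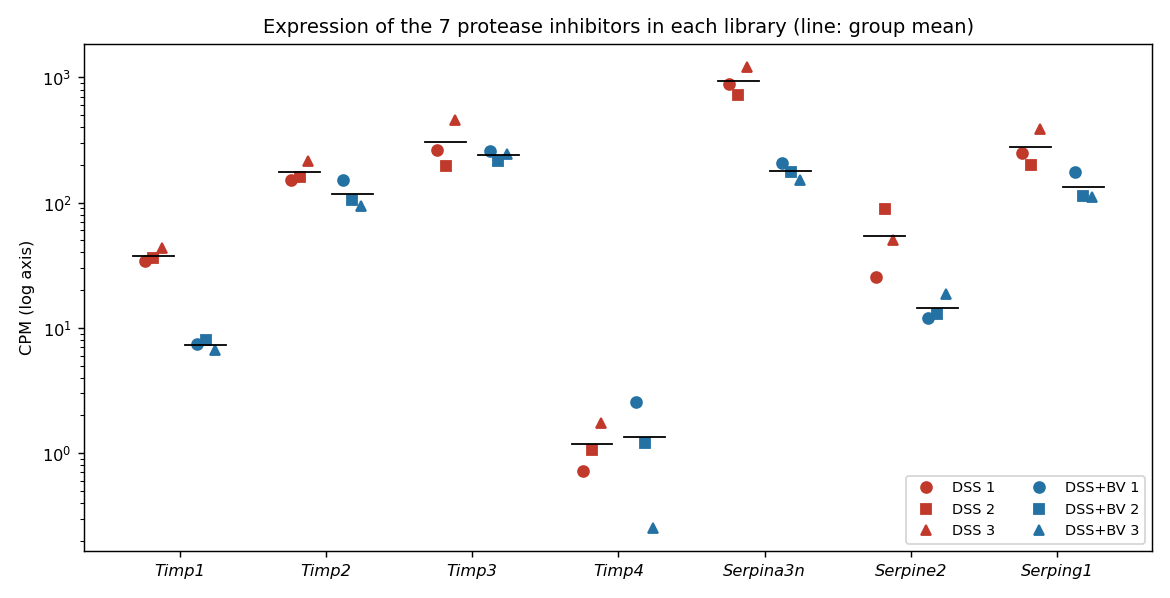
Expression of the 7 inhibitors in each library, in CPM on a log axis, with DSS libraries in red, DSS+BV libraries in blue, a symbol for each mouse number and a line at the group mean. Timp1, Serpina3n, Serpine2 and Serping1 had every DSS+BV library below every DSS library, while the groups of Timp2, Timp3 and Timp4 overlapped.

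Timp1 (Entrez gene 21857) encodes the soluble TIMP that binds MMP9 and is commonly raised in wounds and fibrosis. It is a protein-coding gene on the plus strand of chromosome X (chrX:20870166-20874737, build GRCm38.p6) with 6 exons in the transcript used here. Its expression was 33.9, 35.9 and 43.6 CPM in DSS 1, 2 and 3 against 7.39, 7.96 and 6.70 CPM in DSS+BV 1, 2 and 3. The lowest DSS library stood at 4.26 times the highest DSS+BV library, a wider gap than for the other 6. The means were 37.8 ± 5.11 CPM (SD, n = 3) and 7.35 ± 0.632 CPM (SD, n = 3), and the log2 fold change was -2.36 (SE 0.176). It was -2.38 without DSS 2 and DSS+BV 1, and lay between -2.43 and -2.25 when each library was left out in turn. Timp1 also had the smallest spread of the 7 among DSS mice, with a coefficient of variation of 13.5%, and among DSS+BV mice at 8.59%.

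Timp2 (Entrez gene 21858) is made by most connective tissue cells and takes part in the activation of the proenzyme of MMP2 at the cell surface, together with MMP14. It lies on the minus strand of chromosome 11 (chr11:118301061-118355411). DSS 1, 2 and 3 had 150, 161 and 214 CPM, and DSS+BV 1, 2 and 3 had 151, 106 and 93.8 CPM. DSS+BV 1 was level with DSS 1, so the groups overlapped. The means were 175 ± 34.3 CPM and 117 ± 30.0 CPM (SD, n = 3 each), with a log2 fold change of -0.59 (SE 0.230), which was -0.85 without DSS 2 and DSS+BV 1.

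Timp3 (Entrez gene 21859) is the TIMP that stays bound to the extracellular matrix and the main natural inhibitor of ADAM17, which sheds tumour necrosis factor. Its gene is on chromosome 10 (chr10:86300412-86349505, plus strand). It was at 263, 196 and 460 CPM in DSS 1, 2 and 3 against 257, 214 and 247 CPM in DSS+BV 1, 2 and 3. DSS 3 alone stood high, and the other 5 libraries lay together. The means were 307 ± 137 CPM and 239 ± 22.4 CPM (SD, n = 3 each), and the log2 fold change of -0.36 (SE 0.312) became 0.06 without DSS 3 and -0.64 without DSS 2 and DSS+BV 1.

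Timp4 (Entrez gene 110595), best known from the heart, is on the minus strand of chromosome 6 (chr6:115244444-115252205). Its expected counts were 12, 17 and 30 in the DSS libraries and 39, 19 and 4 in the DSS+BV libraries, or 0.719, 1.06 and 1.75 CPM against 2.57, 1.21 and 0.253 CPM. The log2 fold change of 0.19 (SE 0.768) gave no direction. It lay between -0.67 and 0.69 when each library was left out in turn, and at -0.73 without DSS 2 and DSS+BV 1. A difference for Timp4 was not detectable here, with few counts and DSS+BV mice that differed among themselves by up to 10.2 times.

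Serpina3n (Entrez gene 20716) encodes a secreted serpin that inhibits cathepsin G, elastase and granzyme B, proteinases of neutrophils and cytotoxic cells, and it is an acute-phase gene. It lies on the plus strand of chromosome 12 (chr12:104406646-104414334), in a cluster of Serpina3 genes. It was the most abundant of the 7, at or above 98.7% of tested genes in mean CPM and up to 0.120% of all counts in a library. DSS 1, 2 and 3 had 887, 719 and 1210 CPM, and DSS+BV 1, 2 and 3 had 207, 175 and 151 CPM. The lowest DSS library was 3.47 times the highest DSS+BV library. The means were 939 ± 250 CPM and 178 ± 28.5 CPM (SD, n = 3 each), and the log2 fold change was -2.40 (SE 0.249), or -2.67 without DSS 2 and DSS+BV 1.

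Serpine2 (Entrez gene 20720), also called protease nexin-1, inhibits thrombin and the plasminogen activators at the surface of fibroblasts and other cells. It lies on the minus strand of chromosome 1 (chr1:79794317-79858665). Its expression was 25.6, 88.3 and 50.02 CPM in DSS 1, 2 and 3 against 11.9, 13.0 and 18.7 CPM in DSS+BV 1, 2 and 3. DSS mice differed among themselves by up to 3.45 times, DSS 2 being highest, and the lowest of them was 1.37 times the highest DSS+BV library. The means were 54.6 ± 31.6 CPM and 14.5 ± 3.61 CPM (SD, n = 3 each). The log2 fold change of -1.91 (SE 0.453) was -1.37 without DSS 2 and -1.24 (SE 0.402) without DSS 2 and DSS+BV 1.

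Serping1 (Entrez gene 12258) encodes C1 inhibitor, which restrains C1r and C1s of the complement system, plasma kallikrein and factor XIIa. It lies on the minus strand of chromosome 2 (chr2:84765360-84775444). DSS 1, 2 and 3 had 249, 198 and 384 CPM, and DSS+BV 1, 2 and 3 had 176, 113 and 111 CPM. The groups were close, with the lowest DSS library 1.12 times the highest DSS+BV library. The means were 277 ± 95.9 CPM and 133 ± 37.2 CPM (SD, n = 3 each). The log2 fold change of -1.05 (SE 0.304) was -0.75 without DSS 3 and -1.48 (SE 0.275) without DSS 2 and DSS+BV 1.

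Promoter sequence was taken for 6 of the 7 genes from RefSeq (GRCm38.p6), 250 bases before the start in each promoter entry, and Serping1 had no entry. For Serpina3n this window ran past the gene start given above, and the 188 bases before the gene start are shown. The sequences of Timp1, Serpina3n and Serpine2, whose groups did not overlap, are shown beside that of Timp3, whose groups did. Each is the stretch upstream of annotated exons on the gene's own strand, at chrX:20869916-20870165, chr12:104406458-104406645, chr1:79858697-79858915 (minus strand) and chr10:86300162-86300371, and capitals mark the GC box GGGCGG or its reverse complement.
Timp1: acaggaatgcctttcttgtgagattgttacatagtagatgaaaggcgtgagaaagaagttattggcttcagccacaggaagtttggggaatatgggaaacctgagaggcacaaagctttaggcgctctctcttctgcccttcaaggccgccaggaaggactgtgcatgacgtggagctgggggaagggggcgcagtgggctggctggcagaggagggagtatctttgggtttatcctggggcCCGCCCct
Serpina3n: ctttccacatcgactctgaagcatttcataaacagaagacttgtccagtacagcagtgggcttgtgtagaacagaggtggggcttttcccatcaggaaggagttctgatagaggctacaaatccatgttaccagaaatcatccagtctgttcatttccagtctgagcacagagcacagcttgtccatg
Serpine2: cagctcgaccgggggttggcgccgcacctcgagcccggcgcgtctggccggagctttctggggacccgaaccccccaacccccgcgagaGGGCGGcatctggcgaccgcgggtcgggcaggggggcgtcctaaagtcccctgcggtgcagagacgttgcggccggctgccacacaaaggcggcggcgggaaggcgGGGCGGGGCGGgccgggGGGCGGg
Timp3: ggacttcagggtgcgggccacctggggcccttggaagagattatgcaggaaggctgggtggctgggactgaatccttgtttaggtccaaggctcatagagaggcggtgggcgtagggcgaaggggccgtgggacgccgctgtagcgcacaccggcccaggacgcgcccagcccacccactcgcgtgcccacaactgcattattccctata
The stretches shown were unlike each other in base composition, with 46.3% G and C upstream of Serpina3n, 54.4% upstream of Timp1, 63.8% upstream of Timp3 and 77.6% upstream of Serpine2. The median of all 32851 promoter windows was 52.4%, over full windows of 250 bases. The stretches of Serpina3n, Timp3 and Serpine2 are shorter (188, 210 and 219 bases), so they are not fully comparable with that median. The GC box was present in 32.7% of all windows. It lay at bases -8 to -3 of Timp1 and 6 times in the 250 bases before Serpine2, of which 4 are in the stretch shown, and it was not in the Serpina3n window. Timp3 has its copy at -15 to -10, within an annotated exon and thus not shown. The letters of the AP-1 motif TGANTCA (6.75% of all windows), the STAT motif TTCNNNGAA (7.02%), the C/EBP motif TTGCNNAA (9.56%), the TATA box TATAAA (12.4%) and the NF-kB motif (3.90%) were searched on both strands. None of them was in these 6 windows, which says only that the letters are not there.

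Levels can be set side by side between genes only per length, and the order depended on which length was used. Per kilobase of transcript, the mean levels came in the same order in both groups. Among DSS mice Serpina3n led at 455 ± 121 CPM per kb (SD, n = 3), followed by Serping1 at 157 ± 54.3, and neither range met that of a neighbour. Timp3 (64.9 ± 29.1), Timp2 (47.2 ± 9.24), Timp1 (42.8 ± 5.78) and Serpine2 (24.7 ± 14.3) came next, each overlapping its neighbour, and Timp4 was last at 0.214. In DSS+BV mice Serpina3n at 86.1 ± 13.8 CPM per kb and Serping1 at 75.4 ± 21.0 overlapped. Timp3 followed at 50.6 ± 4.74 and Timp2 at 31.5 ± 8.10, then Timp1 at 8.32 ± 0.715 and Serpine2 at 6.57 ± 1.63, which overlapped each other. Timp1 was below Timp2 in each library on this scale, with ranges that overlapped in DSS mice (38.4 to 49.3 against 40.6 to 57.8 CPM per kb) and did not in DSS+BV mice (7.59 to 9.02 against 25.3 to 40.6).

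Per kilobase of coding sequence the order was another, and it differed between the groups. DSS mice had Serpina3n first at 749 ± 199 CPM per kb, then Timp3 (484 ± 217), Timp2 (265 ± 51.9), Serping1 (183 ± 63.4), Timp1 (61.4 ± 8.30) and Serpine2 (45.9 ± 26.5). DSS+BV mice had Timp3 first at 378 ± 35.3 CPM per kb, then Timp2 (177 ± 45.5), Serpina3n (142 ± 22.7), Serping1 (88.1 ± 24.6), Serpine2 (12.2 ± 3.03) and Timp1 (11.95 ± 1.03), all SD with n = 3. On this scale Serpina3n stood after Timp3 and Timp2 in DSS+BV mice, and Timp1 was far below Timp2 in DSS mice as well, at 55.1 to 70.8 against 228 to 325 CPM per kb. Timp4 was last by either length.

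The make-up of TIMP expression per transcript length differed accordingly. Timp1 made up 28.5, 32.3 and 24.1% of the summed 4 genes in DSS 1, 2 and 3 against 8.06, 10.9 and 8.91% in DSS+BV 1, 2 and 3, or 28.3 ± 4.13% and 9.28 ± 1.44% (SD, n = 3 each). Timp3 held 40.7 ± 7.30% in DSS mice against 56.1 ± 4.68% in DSS+BV mice, Timp2 held 30.9 ± 3.24% and 34.4 ± 4.72%, and Timp4 at most 0.451% in any library. Divided by coding length instead, Timp1 made up 7.89% and 2.13%, because its transcript has the shortest untranslated part of the 4. The size of the share depended on the length used, and the DSS libraries stood above the DSS+BV libraries with both. The ratio of Timp1 to Timp2 in CPM, which needs no length for a comparison between libraries, was 0.225, 0.223 and 0.203 in DSS 1, 2 and 3 against 0.0490, 0.0754 and 0.0714 in DSS+BV 1, 2 and 3.

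**Figure D2:**
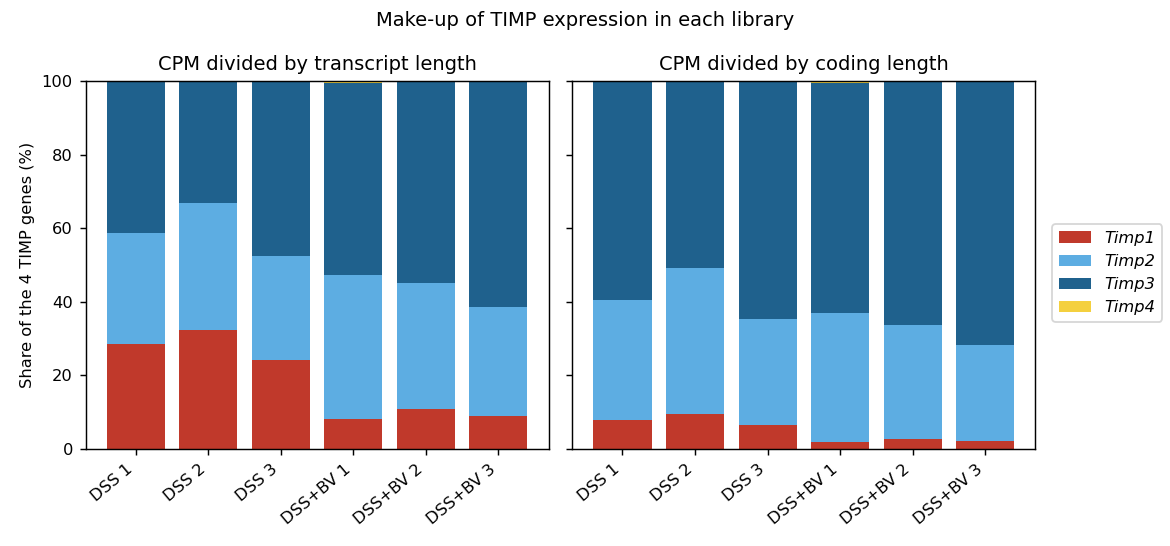
Share of each TIMP gene in the summed expression of the 4, as stacked bars for each library, with CPM divided by transcript length on the left and by coding length on the right. The Timp1 part of the bar was 24.1 to 32.3% in DSS libraries and 8.06 to 10.9% in DSS+BV libraries by transcript length, and smaller in both groups by coding length.

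The targets of the TIMPs were compared by a list of 23 MMP genes, 21 of them in the table and 17 tested. Of these 17, 3 fell and 0 rose in the DSS+BV group in edgeR's quasi-likelihood test, p-values adjusted by Benjamini-Hochberg over all genes. Among all tested genes 0.0892% fell and 0% rose. At an unadjusted p under 0.05, 12 of the 17 were lower and 0 higher, against 9.12% and 3.4% of all tested genes. DESeq2 called 6 lower and 0 higher, against 1.78% and 0.291% of genes. The median log2 fold change was -0.91. Those that fell were Mmp9 (gelatinase B, carried by neutrophils and macrophages), Mmp8 (neutrophil collagenase) and Mmp13 (a collagenase of stroma). Mmp9 was at 11.4, 13.2 and 12.4 CPM in DSS 1, 2 and 3 against 1.91, 1.72 and 1.77 CPM in DSS+BV 1, 2 and 3, a log2 fold change of -2.77 (SE 0.216, edgeR adjusted p = 0.0179). Mmp13 went from 110 ± 34.7 to 10.4 ± 2.82 CPM (SD, n = 3 for each; log2 fold change -3.40, edgeR adjusted p = 0.0293), and Mmp8 from 9.61 ± 0.941 to 0.474 ± 0.173 CPM (log2 fold change -4.32, edgeR adjusted p = 0.0179). Mmp8 stands in the neutrophil marker list too.

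Stromelysins Mmp3, at 127, 101 and 232 CPM against 22.2, 14.7 and 10.4 CPM, and Mmp10, at 34.9, 119 and 94.3 CPM against 4.49, 7.96 and 15.1 CPM, had groups that did not overlap but missed the edgeR threshold (adjusted p = 0.0833 and 0.186) and passed in DESeq2. The abundant MMPs of connective tissue differed less. Mmp2 (gelatinase A) had a log2 fold change of -0.82 (SE 0.149, edgeR adjusted p = 0.173) and Mmp14, its activator, -0.63 (SE 0.185, edgeR adjusted p = 0.320), beside -0.59 for Timp2, the inhibitor that forms a complex with both. Summed over 21 MMP genes, expression was 768 to 1230 CPM in DSS mice against 455 to 537 CPM in DSS+BV mice. The 4 TIMPs summed to 394 to 720 CPM and 329 to 417 CPM. The ratio of the TIMP sum to the MMP sum was 0.584, 0.390 and 0.585 in DSS 1, 2 and 3 against 0.866, 0.722 and 0.647 in DSS+BV 1, 2 and 3, so the DSS+BV libraries were higher without overlap. This ratio was formed after the values were seen, is not per length and compares libraries, not inhibitor with enzyme.

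Of 26 tested ADAM and ADAMTS genes, of 28 listed, 0 passed edgeR's test in either direction. Unadjusted p was under 0.05 for 11 lower and 0 higher, against 9.12% and 3.4% of all tested genes. DESeq2 called 3 lower and 0 higher, against 1.78% and 0.291% of genes, and the median log2 fold change was -0.63. The smallest p-values belonged to Adamts7 (log2 fold change -1.39, SE 0.254, edgeR adjusted p = 0.173), Adamts2, a procollagen processing enzyme (-1.18, SE 0.229, edgeR adjusted p = 0.186), and Adamts12 (-0.98, SE 0.222, edgeR adjusted p = 0.241). Adam10 and Adam9, the most abundant, had log2 fold changes of -0.11 (SE 0.112) and -0.47 (SE 0.117), with edgeR adjusted p = 0.710 and 0.274. Adam10, the sheddase of Notch and cadherins, was at 182.8 ± 2.77 CPM in DSS mice against 169 ± 6.41 CPM in DSS+BV mice (SD, n = 3 each).

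Targets and uptake receptors of the 3 serpins were 34 listed genes, 22 of them tested. None passed edgeR's test in either direction. At an unadjusted p under 0.05, 3 were lower and 1 higher, shares near the 9.12% and 3.4% of all tested genes. DESeq2 called 1 lower and 0 higher, against 1.78% and 0.291% of genes, and the median log2 fold change was -0.17. Plat, the tissue plasminogen activator that Serpine2 inhibits, was at 27.7, 20.6 and 91.8 CPM in DSS 1, 2 and 3 against 10.4, 10.4 and 8.98 CPM in DSS+BV 1, 2 and 3. Its high library was DSS 3, where that of Serpine2 was DSS 2, and its log2 fold change was -2.23 (SE 0.573, edgeR adjusted p = 0.283). Plau, the other plasminogen activator, went the other way, at 24.9, 29.8 and 29.9 CPM in DSS 1, 2 and 3 against 30.8, 34.4 and 32.4 CPM in DSS+BV 1, 2 and 3. Its log2 fold change was 0.20 (SE 0.143, edgeR adjusted p = 0.586). C1ra, a complement proteinase under control of C1 inhibitor, had a log2 fold change of -1.24 (SE 0.372, edgeR adjusted p = 0.329). The most abundant of the list were the epithelial membrane proteinases Tmprss2 (log2 fold change 0.14, SE 0.471, edgeR adjusted p = 0.921) and St14 (-0.18, SE 0.183, edgeR adjusted p = 0.700), both with overlapping groups.

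Serping1 ran close to C1s1, which encodes a C1s proteinase that C1 inhibitor blocks. The ratio of Serping1 to C1s1 in CPM was 1.17, 1.13 and 1.18 in DSS 1, 2 and 3 against 1.04, 0.983 and 1.07 in DSS+BV 1, 2 and 3. Over the same libraries Serping1 ran from 111 to 384 CPM and C1s1 from 104 to 326 CPM, a far wider span than that of their ratio. The ratio of Serpina3n to Serping1 was 3.15 to 3.63 in DSS mice against 1.18 to 1.56 in DSS+BV mice, so the 2 serpins did not differ between groups by the same factor.

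Other serpins numbered 46, and 19 were tested. In edgeR's test 0 passed in either direction. With an unadjusted p under 0.05, 6 were lower and 0 higher, against 9.12% and 3.4% of all tested genes. DESeq2, run without that filter and counted over all 46, called 3 lower and 0 higher, against 1.78% and 0.291% of genes. Not all of the 3 were among the 19. The median log2 fold change of the 19 was -0.71. Serpina3m and Serpina3c, neighbours of Serpina3n in its cluster, had log2 fold changes of -2.41 (SE 0.275, edgeR adjusted p = 0.0700) and -2.44 (SE 0.560, edgeR adjusted p = 0.242). The cluster as counted here has 9 genes, of which Serpina3j was at 0 in all libraries. Serpina3n made up 89.2 to 92.5% of the cluster's CPM in DSS mice against 81.4 to 88.9% in DSS+BV mice. Reads can be shared within this cluster: 6.90% of the 50-base stretches of the Serpina3n transcript occur in another gene's transcript, mostly of the cluster, and 0.204% of its 100-base stretches, and its coding sequence is 85.2% identical to that of Serpina3m and 85.4% to that of Serpina3c. These shares are of the Serpina3n transcript and set no limit on the error in the minor cluster genes. In DSS mice Serpina3m (mean 41.1 CPM) and Serpina3c (4.94 CPM) were far below Serpina3n (939 CPM), so its reads could weigh heavily in their values. How far they did was not tested, and the read length was not given in the sources used here.

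Away from the cluster, Serpinh1, a collagen chaperone that inhibits no proteinase, had a log2 fold change of -0.71 (SE 0.238, edgeR adjusted p = 0.347). The intracellular serpins Serpinb1a, of neutrophils and epithelium, and Serpinb6a were abundant and had log2 fold changes of -0.15 (SE 0.371, edgeR adjusted p = 0.890) and 0.06 (SE 0.144, edgeR adjusted p = 0.893).

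**Figure D3:**
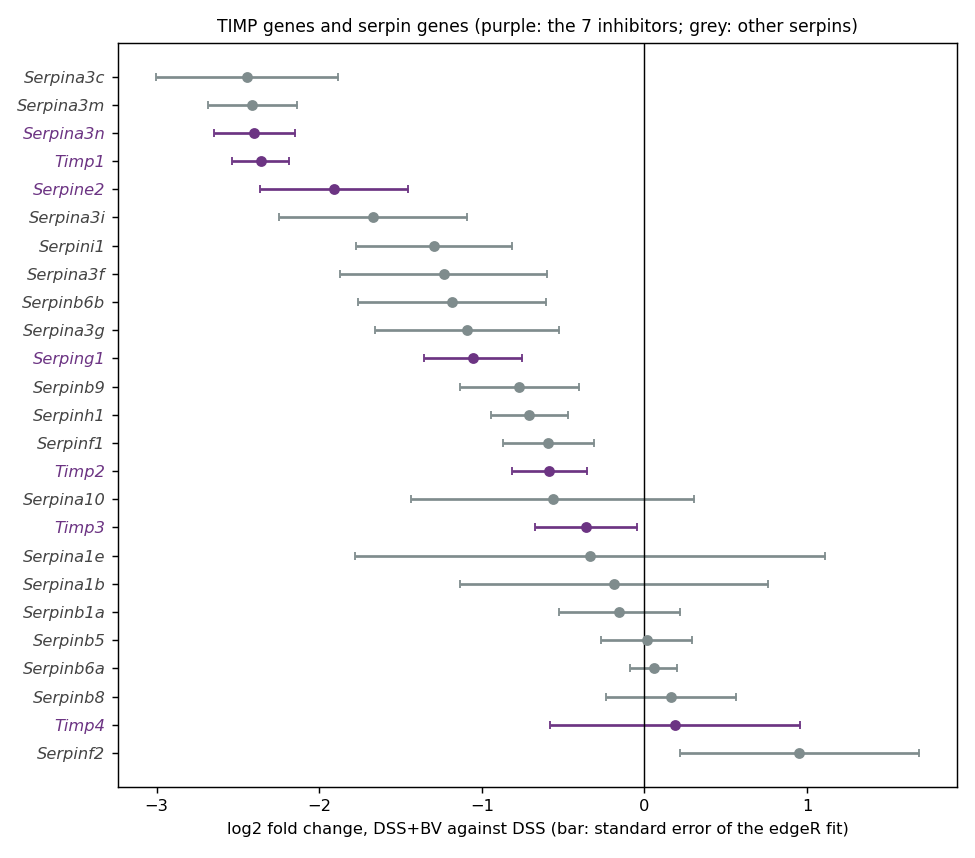
Log2 fold changes of the 4 TIMP genes and of the tested serpins reported here, with the standard error derived from the edgeR F statistic as bars, the 7 inhibitors in purple and other serpins in grey. Serpina3n and Timp1 stood at -2.40 and -2.36, beside Serpina3c and Serpina3m, while Timp2, Timp3 and Timp4 lay nearer 0.

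Other protease inhibitors, such as WFDC, Kunitz, Kazal and cystatin genes, were 39 listed, 37 in the table and 29 tested. By edgeR's test 0 passed in either direction, and the median log2 fold change was -0.53. Lower genes with an unadjusted p under 0.05 were 11, and higher ones 0, against 9.12% and 3.4% of all tested genes. DESeq2 called 4 lower and 0 higher, against 1.78% and 0.291% of genes. All 4 were WFDC genes, named for a cysteine-rich domain of small secreted inhibitors. Wfdc17 was at 33.2 ± 9.79 CPM in DSS mice against 8.55 ± 2.97 CPM in DSS+BV mice (SD, n = 3 each), with a log2 fold change of -1.96 (SE 0.338, edgeR adjusted p = 0.161). Wfdc12 was at 1.32, 2.24 and 1.22 CPM in the DSS libraries, at 0.0660 CPM in DSS+BV 1 and at 0 in the others, and Wfdc21 at 1.08, 1.43 and 1.40 CPM against 0.132, 0 and 0.0632 CPM. The epithelial inhibitors Spint2 and Spink4, the most abundant of this list, had overlapping groups, with log2 fold changes of 0.39 (SE 0.217, edgeR adjusted p = 0.507) and 0.19 (SE 0.318, edgeR adjusted p = 0.833).

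Serpina3n and Timp1 can be induced by cytokines of the interleukin-6 family through STAT3, and 28 further genes of the acute-phase and STAT3 response were compared, of which 25 were tested. With edgeR 0 passed in either direction. An unadjusted p under 0.05 was found for 16 lower and 0 higher, against 9.12% and 3.4% of all tested genes. DESeq2 called 10 lower and 0 higher, against 1.78% and 0.291% of genes. The median log2 fold change was -1.09, with 24 of 25 below 0. This list was chosen with earlier results of these data known, and whether STAT3 acted here was not tested. Lcn2, which encodes the iron-siderophore binding protein lipocalin-2 and is also in the neutrophil list, was at 35.6, 67.4 and 80.2 CPM in the DSS libraries and 8.51, 7.26 and 3.54 CPM in the DSS+BV libraries (log2 fold change -3.25, SE 0.437, edgeR adjusted p = 0.0833). Steap4, a metalloreductase, had a log2 fold change of -2.16 (SE 0.329, edgeR adjusted p = 0.121), and Chil3, a chitinase-like protein of macrophages and neutrophils, -4.05 (SE 0.603, edgeR adjusted p = 0.113). Saa1 (serum amyloid A), the most abundant, was at 565, 532 and 1876 CPM against 324, 183 and 73.3 CPM (log2 fold change -2.36, SE 0.709, edgeR adjusted p = 0.329). Stat3 itself had a log2 fold change of -0.36 (SE 0.161, edgeR adjusted p = 0.427) and overlapping groups.

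Over all these lists together, 138 of 198 genes were tested, and 3 fell and 0 rose in edgeR's test. At an unadjusted p under 0.05 in that test, 59 were lower and 1 higher. DESeq2, counted over the 194 genes in the table, called 27 lower and 0 higher. The median log2 fold change of the 138 was -0.71. In 59 of them every DSS+BV library was below every DSS library, with 2 the other way. Over all tested genes the unadjusted p passed for 9.12% lower and 3.4% higher, and groups did not overlap for 11.3% lower and 6.37% higher. The threshold was passed by 0.0892% lower and 0% higher in edgeR, and by 1.78% and 0.291% in DESeq2. Leaving out each library in turn, 0 or 1 of these genes was lower in edgeR. All of these lists were chosen with earlier results of these data known, so their shares are a description.

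**Figure D4:**
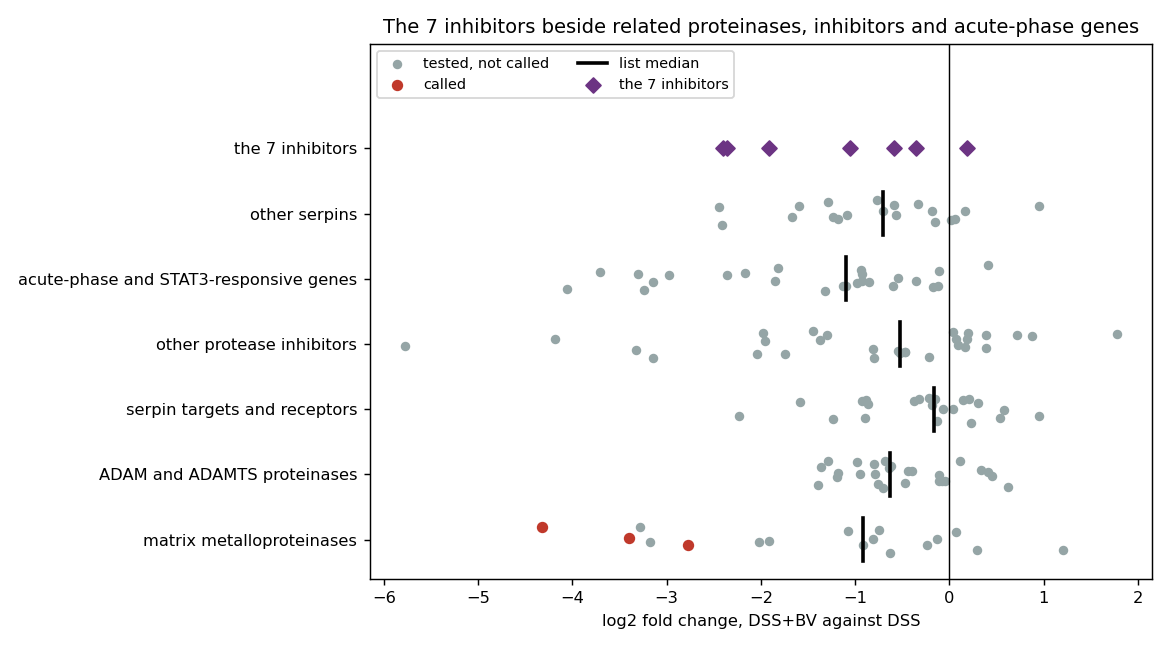
Log2 fold changes of the tested genes of each list, as points by list, with genes past the edgeR threshold in red, a bar at each list's median and the 7 inhibitors as purple diamonds. Medians lay between -1.09 for acute-phase genes and -0.17 for serpin targets and receptors, and the 3 genes past the threshold were all MMPs.

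The genes with a pattern across the 6 libraries most like each inhibitor were found by the root-mean-square difference of mean-centred log2 CPM, among genes of at least 1 CPM. For Timp1 these were Chl1, a neural cell adhesion gene (0.158), Serpina3n (0.185) and Mmp9 (0.227). For Serpina3n they were Serpina3m (0.0910), Hdc, the enzyme that makes histamine (0.147), and Il1r2, the decoy receptor of interleukin-1 (0.154). Serpina3m can share reads with Serpina3n. Hdc was at 6.35, 6.28 and 9.67 CPM in DSS 1, 2 and 3 against 1.85, 1.27 and 0.948 CPM in DSS+BV 1, 2 and 3.

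Serping1 was matched most closely by Trf (transferrin, 0.0896), C1s1 (0.0940) and Arhgap10 (0.0945). Closest to Timp2 were Nr1h3, which encodes the sterol receptor LXR-alpha (0.0453), Slc12a4 (0.0460) and Ntng2 (0.0525). Timp3 was nearest to Trim12a (0.0688), Gadd45b (0.0934) and Pmepa1 (0.0974), each of which also had its highest value in DSS 3. Looser matches were found for Serpine2, with Arxes2 (0.278), Prr5l (0.301) and Kcne4 (0.322), and for Timp4, with Ccn2 (0.225), Slc6a4 (0.270) and Eno3 (0.309). All these values rest on the same 6 libraries.

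Markers of the cell types that could carry these transcripts were set beside them, as sums of CPM per library and as log2 fold changes without a test. Neutrophil markers, 15 genes of which 11 were tested, summed to 580 to 1204 CPM in DSS mice against 217 to 617 CPM in DSS+BV mice, with 10 of 11 below 0, a median log2 fold change of -3.61 and Elane at 0 in all libraries. Fibroblast markers, 15 of 15 below 0, summed to 4600 to 5054 CPM and 1858 to 2679 CPM, with a median of -0.80. Macrophage and monocyte markers, 15 of 15 below 0, summed to 988 to 2231 CPM and 596 to 1521 CPM, with a median of -0.89. The fibroblast sums did not overlap between groups, with 6 of 15 genes not overlapping. Those of macrophages overlapped, with 3 of 15 genes not overlapping. Over all tested genes, 11.3% did not overlap with every DSS+BV library lower, and 7501 of 14579 had a log2 fold change below 0. The neutrophil sums overlapped through their 2 most abundant genes, while 8 of the 11 tested genes did not overlap. Ly6g was at 76.1 to 854 CPM in DSS mice against 19.1 to 303 CPM in DSS+BV mice. Cd177 was at 74.1 to 308 CPM against 99.4 to 282 CPM, and with a log2 fold change of 0.23 it was the tested neutrophil gene above 0. Without these 2, left out after their values were seen, the other 13 summed to 205, 196 and 276 CPM in DSS 1, 2 and 3 against 32.7, 21.1 and 14.9 CPM in DSS+BV 1, 2 and 3. All of these medians lay on the same side of 0 as Timp1, Serpina3n, Serpine2 and Serping1, and the part of these cells in those differences was not tested.

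Endothelial markers, 12 of 12 below 0, summed to 533 to 734 CPM and 380 to 478 CPM, with a median of -0.63. Smooth muscle markers, 9 of 12 below 0, overlapped at 4288 to 5471 CPM and 3288 to 4920 CPM, with a median of -0.16. Epithelial markers, 0 of 14 below 0, summed to 15650 to 25976 CPM in DSS mice against 27238 to 45398 CPM in DSS+BV mice, with a median of 0.52, so colonic epithelium was plainly present in all libraries and its summed markers were higher in every DSS+BV library. Hepatocyte genes were examined because Serpina3n and Serping1 are also made by liver. Their sum of 88.9 to 167 CPM against 49.0 to 82.1 CPM was mostly Trf, at 69.5 to 143 CPM in the DSS group, and Alb, Apoa2, Fgg, Serpina1a, Serpinc1 and Ahsg were under 1 CPM in every library. Cyp2e1 was at 5.63 to 16.1 CPM in DSS mice against 0.316 to 5.34 CPM in DSS+BV mice. Ttr was at 3.41 to 7.65 CPM against 1.83 to 9.70 CPM. Apoa1 passed 1 CPM only in DSS+BV 3 (7.97 CPM), and Fga and Fgb only in DSS 2 (1.06 and 1.37 CPM).

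Neighbouring transcripts limit a few of these values. Timp1, Timp3 and Timp4 each lie inside a synapsin gene on the opposite strand, and the strand used in counting was not given in the sources used here. Timp1 shares 0 exonic bases with Syn1, which was at 1.74 to 8.21 CPM. Timp3 shares 1733 with Syn3, at 3.11 to 11.004 CPM, well below Timp3 itself. Timp4 shares 90 with Syn2, whose 4.14 to 17.8 CPM exceeded the level of Timp4 in every library, so reads of this pair cannot be told apart over those bases. Among themselves the 4 TIMP coding sequences are 54.7 to 61.5% identical, and no 50-base stretch of Timp1, Timp2, Serpine2 or Serping1 occurs in another gene's transcript.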

How the data were processed

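RNA of colon tissue from 3 DSS and 3 DSS+BV mice was analysed from the gene table. The authors deposited expected counts per gene, as RSEM gives them, without scaling between libraries. The submitters' processing notes name HISAT2 2.1.0, Bowtie2 2.2.5, RSEM 1.2.8 and build GRCm38.p6. A value that is not whole was present for 1573 genes (8.51%), so the expected counts were rounded. Libraries were grouped by their sample labels.

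Genes were kept with filterByExpr (minimum count 10, minimum total 15), scaled by TMM and tested by quasi-likelihood F-tests in edgeR 4.0.16 (R 4.3.3), adjusting p-values by Benjamini-Hochberg over 14579 genes. A gene was called when its adjusted p was under 0.05 and its log2 fold change was beyond 1 in either direction. The fit gives no standard error, so SE was taken as the absolute log2 fold change divided by the square root of the F statistic. DESeq2, the tool of the study, was run in version 1.42.0 as an alternative, beside other scalings, filters, a robust fit, unrounded counts, a replicate block and left-out libraries. It was run without the filter above, so its calls in a list are counted over all listed genes in the table. Log2 CPM for pattern likeness had a prior count of 2. The procedure was tested on simulated data.

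The 7 genes and all lists were chosen with earlier results of these data known. Named genes were the 7, in each list the called genes, up to 3 more with the smallest p and the 2 most abundant, and the 3 genes most like each of the 7. C1s1, Plau, marker genes and overlapping genes are named besides these. Single genes that the rule would name or a plot would show are in a few cases not reported here.

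Gene coordinates and promoters came from RefSeq, and strands, exons and lengths from GENCODE transcripts. All were of GRCm38.p6, the build of the notes. Plots were made in Python 3.11.15 (matplotlib 3.10.9). Pairs of mice of a group differed beyond counting noise, their chi-square divided by its degrees of freedom being 42.7 to 118.1. With 3 mice per group, p-values rest on few replicates, and an exact two-sided permutation test of a single gene cannot pass the threshold. No protein sequences were used here.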

Additional observations from a re-analysis of the deposited data

How the results depend on the processing

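The log2 fold changes of the 7 inhibitors were recomputed under 15 alternatives. All 105 values stayed within 1 SD of the main ones, the SD being that between mice within groups. Leaving out 1 of 3 libraries can hardly move a value further than that, so this is no measure of stability. Timp3 reached 0.06 without DSS 3, and Timp4 ran from -0.73 to 0.69. The number of calls changed between settings. Of 13 genes lower and 0 higher, DESeq2 gave 281 and 46 (27 of the listed genes lower in place of 3), and the fit without DSS 2 and DSS+BV 1, libraries chosen because earlier analysis had placed them nearer the other group, gave 333 and 282 (25 listed genes lower). Leaving out each library in turn, 0 to 3 genes were lower in edgeR, 0 to 4 higher, 0 to 1 of the listed genes lower and 0 of the 7 inhibitors. With at least 1 CPM in 3 or more libraries as the filter, 1 of the 7 was called in place of 2. The causes were not tested. With the replicate number as a block, 0 genes, 0 listed genes and 0 of the 7 were lower. Same-numbered mice of the groups had correlations of their deviations of 0.267, 0.255 and -0.296, and not every mouse correlated best with its own number. The labels do not say that the numbers pair mice, and 3 libraries per group cannot decide it. RLE and upper-quartile factors, a lower filter, the robust fit, unrounded counts and the adjusted p alone gave the same 13 genes. By coding length in place of transcript length, Timp1 made up 7.89% of TIMP expression in DSS mice against 2.13% in DSS+BV mice. Coding lengths were of GENCODE transcripts, in place of the RefSeq proteins first planned. Timp4 is limited by its 4 to 39 counts and by the spread between mice.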
